A study of Mus musculus with 6 samples.

Results

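The class I antigen presentation genes B2m, H2-K1, H2-D1, H2-Q4, H2-T22, H2-T23, H2-M3, Tap1, Tap2 and Tapbp were followed in mouse liver. They were chosen by gene symbol, with earlier results of these data known, and all 10 were found among the 23284 genes counted. Whole liver of 8-week-old mice of strain C57BL6/J was sequenced in 6 libraries, 3 from wild type mice (WT1 to WT3) and 3 from mice homozygous for a Trim24 knockout (Trim24 -/-, KO1 to KO3). Trim24 encodes a cofactor of nuclear receptors, and the series, by its title, concerns fat storage and tumours of the liver in mice lacking it. No treatment is named in the labels, the kind of Trim24 allele is not given, and nothing states that each library is a different animal, so the p-values reflect only how far these libraries spread, which may be technical.

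Class I molecules carry peptides made inside the cell to its surface, where CD8 T cells and natural killer cells inspect them. Each is a heavy chain, encoded in the H2 region of chromosome 17, paired with the light chain beta-2 microglobulin, encoded by B2m on chromosome 2. Peptides from the proteasome enter the endoplasmic reticulum through the transporter formed by TAP1 and TAP2, and tapasin, the product of Tapbp, holds the empty heavy chain next to that transporter. Interferons raise the transcription of most of these genes through IRF and related factors, and the transactivator NLRC5 acts on class I promoters in particular. In resting liver, hepatocytes carry little class I on their surface compared with Kupffer cells and endothelial cells. In bulk tissue, a change in the number of cells of a type and a change in RNA per cell cannot be told apart.

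Promoters of the called members B2m and H2-T23 and of the classical heavy chains are shown because they differ in which exact form marked below was matched. Only exact forms were searched, so a promoter without a match can still hold another form of the same element. RefSeq promoter windows on GRCm38.p6 (250 bases before to 50 after the start site) matched 9 of the 10 members, and Tap2 had no entry. The 200 bases before the start site are given 5′ to 3′ on the strand of the gene. Capitals mark GAAA repeated after a gap of any 2 bases, a form of the interferon-stimulated response element, in B2m and H2-T23, and GGGGA followed directly by TTCCC, a form of the NF-kappaB site of the class I enhancer, in H2-K1 and H2-D1.
B2m, chr2:122147487-122147686, plus strand: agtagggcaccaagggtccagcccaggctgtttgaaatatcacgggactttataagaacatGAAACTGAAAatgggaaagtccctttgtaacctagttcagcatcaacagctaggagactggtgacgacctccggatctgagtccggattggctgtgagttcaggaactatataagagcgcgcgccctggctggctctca
H2-T23, chr17:36032702-36032901, minus strand: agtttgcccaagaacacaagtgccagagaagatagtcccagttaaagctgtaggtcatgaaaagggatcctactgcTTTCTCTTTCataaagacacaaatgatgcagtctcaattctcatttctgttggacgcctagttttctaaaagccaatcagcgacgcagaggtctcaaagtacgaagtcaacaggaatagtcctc
H2-K1, chr17:34000348-34000547, minus strand: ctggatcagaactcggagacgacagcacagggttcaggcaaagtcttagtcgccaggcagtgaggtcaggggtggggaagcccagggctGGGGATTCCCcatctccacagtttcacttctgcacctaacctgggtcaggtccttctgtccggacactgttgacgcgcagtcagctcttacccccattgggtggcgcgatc
H2-D1, chr17:35262894-35263093, plus strand: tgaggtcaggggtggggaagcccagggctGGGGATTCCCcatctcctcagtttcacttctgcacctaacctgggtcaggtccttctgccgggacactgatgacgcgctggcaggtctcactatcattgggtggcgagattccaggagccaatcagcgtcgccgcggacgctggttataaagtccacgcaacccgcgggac
Both strands of the windows were searched. The spaced GAAA repeat was found in 3 members, starting 139 bases before the start site in B2m, 124 bases before it in H2-T23 (on the opposite strand) and 191 bases before it in H2-T22 (on the opposite strand), and in 3.44% of all 32851 promoter windows. The NF-kappaB form was found in H2-K1 and H2-D1 alone of the matched members, and in 0.107% of all windows. TGACG, the core of the cyclic AMP response element to which the X2 box of class I promoters is related, was found in 7 members (B2m, H2-K1, H2-D1, H2-Q4, H2-T22, H2-M3 and Tap1) and in 20.8% of all windows. The short CCAAT box was found in all 9 matched members and in 37.4% of all windows. Matches to different motifs did not overlap in these windows, and a match describes the sequence and not binding.

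Between 1495583 and 1732309 reads per wild type library were counted in genes, against 1607276 to 2872421 per knockout library, which was 4.22% to 6.69% of all counted reads, so usable depth was low. Levels are given as CPM, counts scaled to the reads in tested genes with TMM factors. Trim24 checked the labels, at 31, 45 and 44 counts in WT1 to WT3 and 3, 2 and 2 counts in KO1 to KO3. Markers of pancreatic acinar cells summed to 1.19 to 23.7 CPM in wild type and 3.26 CPM in KO2, but KO1 and KO3 reached 1032 and 662 CPM. Of 9180 genes tested with edgeR's quasi-likelihood test, 283 were called higher in the knockout at an adjusted p under 0.05 (3.08%) and 243 lower (2.65%), which is 5.73% in either direction. The share of the calls that were higher was 53.8%, and 68.4% with library size alone as the scale. DESeq2 called 260 of the 9180 genes higher and 263 lower, and limma-voom 234 and 239. Counts at an unadjusted p under 0.05 are given below without a share over all tested genes. Whether those counts are unusual therefore cannot be read from them.

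Of the 10 members, B2m and H2-T23 rose in the knockout, and the 6 others that passed the filter on low counts were not called. No member was called lower by edgeR, DESeq2 or limma-voom, and none was lower at an unadjusted p under 0.05. H2-T22 and H2-M3 had too few reads for the test. The 2 calls among 8 tested members compare with 3.08% called higher over all genes tested. The median log2 fold change of the 8 was 0.36, against 0.01 over all tested genes, and 6 of the 8 were positive, against 50.8% of all tested genes. Since the members were chosen with earlier results of these data known, these comparisons are not an independent test. Among the tested members, groups did not overlap for B2m and H2-T23, with the knockout above, where 12.4% of all tested genes had that pattern, and for Tap2, with the knockout below, where 12.6% had it. With any of the 3 wild type libraries left out, edgeR called none of the members. Calls over all genes fell as well. Without WT1, WT2 and WT3, 175 of 9577, 171 of 9610 and 127 of 9504 tested genes were higher, against 283 of 9180. In those settings 2, 3 and 3 members were higher at an unadjusted p under 0.05.

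**Figure D1:**
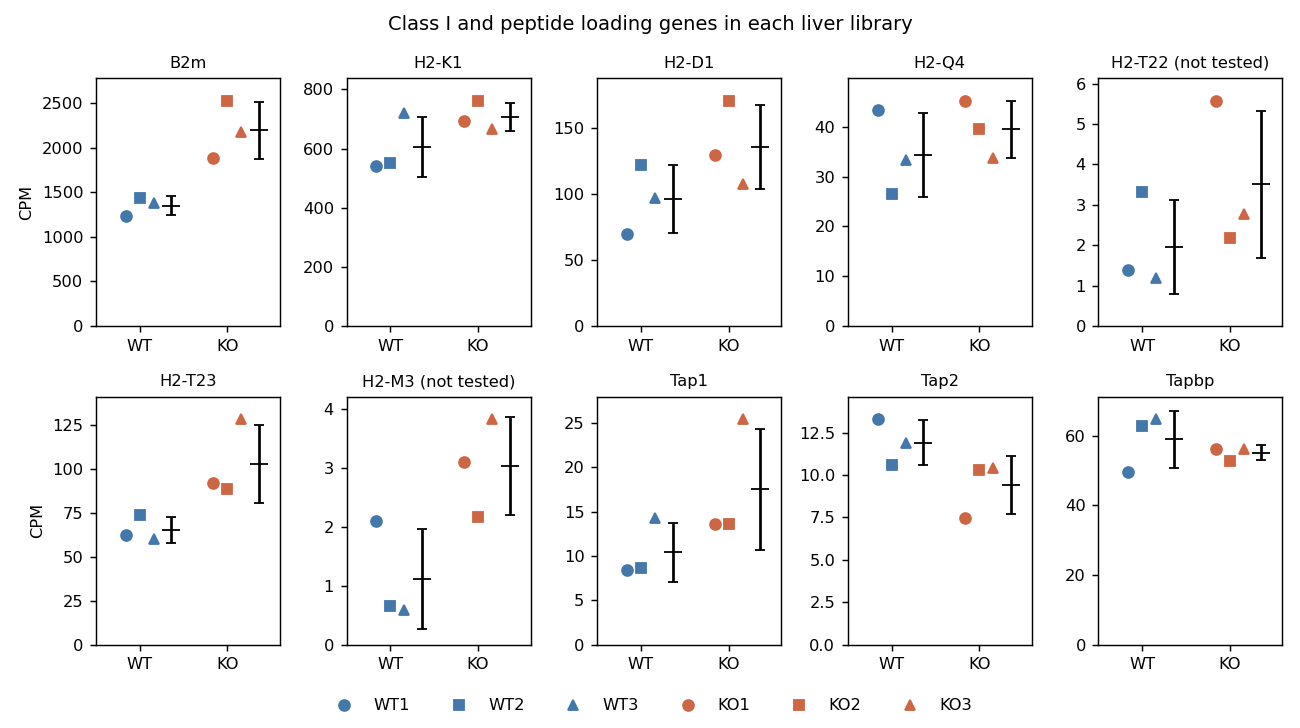
CPM of each of the 10 members (y axes, from 0) in the wild type (WT) and knockout (KO) libraries, 1 symbol per library, with the mean and SD of the 3 libraries beside them. The knockout libraries lie above all wild type libraries for B2m, H2-T23 and, narrowly, H2-M3 and below them for Tap2, while the groups overlap for H2-K1, H2-D1, H2-Q4, H2-T22, Tap1 and Tapbp.

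B2m, the light chain shared by nearly all class I molecules, was the most abundant member. It stood at 1234, 1434 and 1383 CPM in WT1 to WT3 and at 1887, 2526 and 2173 CPM in KO1 to KO3, from 1767 to 6246 counts per library. Every knockout library exceeded every wild type library, and KO2 was the highest. The means were 1351 ± 104 and 2196 ± 320 CPM (SD, n = 3 each). The log2 fold change was 0.70 (SE 0.16, 95% interval 0.36 to 1.04, edgeR quasi-likelihood adjusted p = 0.0197). Over all tested genes, 6.42% had a larger fitted rise. The call held in 11 of 15 alternative settings and ended without WT1, WT2, WT3 or KO2, with adjusted p of 0.0920, 0.0566, 0.0917 and 0.0610, where the log2 fold change was 0.59 to 0.74. With KO2, whose acinar markers lay within the wild type range, as the only knockout library, the change was 0.90. That fit assumes that KO2 varies like the wild type libraries. Since KO2 had the highest B2m of the knockout libraries, a larger change from it alone was fixed in advance. The part of acinar material in the change of B2m was not tested.

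The classical heavy chains H2-K1 and H2-D1, which present peptides to CD8 T cells, were not called. H2-K1 lay at 542, 552 and 721 CPM in wild type, and at 694, 761 and 667 CPM in the knockout libraries. WT3 was above KO1 and KO3, so the groups overlapped. The log2 fold change was 0.22, with a 95% interval of -0.12 to 0.57 and an adjusted p of 0.47 in edgeR's quasi-likelihood test. H2-D1 lay at 69.9, 122 and 96.8 CPM in wild type, and 129, 170 and 108 CPM in the knockout libraries. KO1 and KO2 were above all wild type libraries and KO3 was below WT2. Its log2 fold change was 0.49 (95% interval 0.03 to 0.96, adjusted p = 0.22 by edgeR, unadjusted p = 0.0382), and it was called in none of 15 alternatives, where the change ranged from 0.30 to 0.82.

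Among the nonclassical heavy chains, which vary less between individuals and mostly present specialised ligands, H2-T23 rose. Its product, Qa-1, displays leader peptides of other class I chains to inhibitory receptors of natural killer cells. H2-T23 stood at 62.2, 73.4 and 59.98 CPM in WT1 to WT3 and at 91.6, 88.5 and 128 CPM in KO1 to KO3, from 89 to 368 counts. All knockout libraries were above all wild type libraries, with KO3 the highest. The log2 fold change was 0.67 (SE 0.18, 95% interval 0.28 to 1.05), with an edgeR adjusted p of 0.0459, close to the threshold. The call held in 6 of 15 alternatives. The losses included DESeq2 (adjusted p = 0.0586), limma-voom (0.0573), a filter of 1 CPM in 3 libraries (0.0533), without WT1, WT2, WT3 or KO3 (0.136, 0.0813, 0.186 and 0.149), and with KO2 as the only knockout library (0.267, log2 fold change 0.44).

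**Figure D2:**
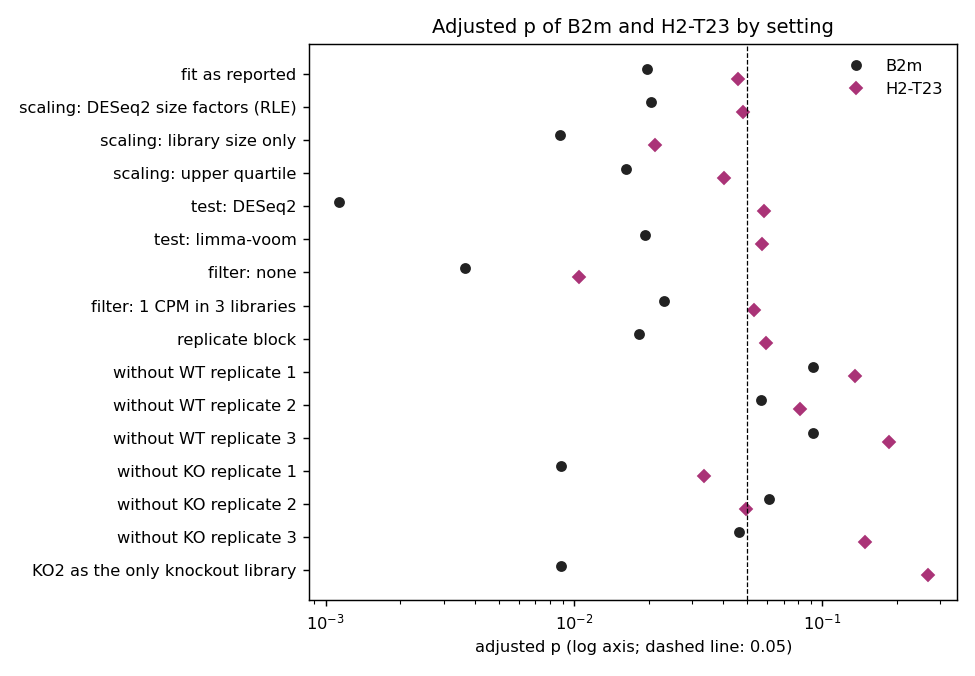
Adjusted p of B2m (circles) and H2-T23 (diamonds) on a log axis in the fit as reported and in each alternative setting (y axis), with the threshold of 0.05 dashed. B2m lies above 0.05 only when WT1, WT2, WT3 or KO2 is left out, and H2-T23 lies on either side of the line across settings.

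H2-Q4, another nonclassical gene, was not called, at 43.3, 26.5 and 33.3 CPM in wild type, and 45.2, 39.6 and 33.7 CPM in the knockout libraries (log2 fold change 0.19, 95% interval -0.27 to 0.66). KO2 and KO3 lay inside the wild type range. H2-M3, which presents peptides that begin with formylated methionine, had 3, 1 and 1 counts in wild type and 5, 4 and 11 counts in knockout. The groups did not overlap, by 2.10 CPM in WT1 against 2.17 CPM in KO2. The ratio of the summed counts, scaled to depth, was 2.92 with an exact 95% counting interval of 1.06 to 9.97, which covers counting error only. Without a filter its edgeR adjusted p was 0.39. H2-T22, whose product is recognised by some gamma delta T cells, had 2, 5 and 2 counts in wild type and 9, 4 and 8 counts in knockout, a ratio of 1.71 (counting interval 0.749 to 4.23), so no difference was detectable at this depth.

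None of the genes that load peptides was called. Tap1 stood at 8.38, 8.60 and 14.3 CPM in wild type, and 13.6, 13.6 and 25.4 CPM in the knockout libraries. KO3 alone was above WT3, the highest wild type library. The log2 fold change was 0.78 (SE 0.33, edgeR adjusted p = 0.21), and over the alternatives it ranged from 0.36 to 1.08, with 0.365 when KO3 was left out. Tap2, its partner in the transporter, lay at 13.3, 10.58 and 11.9 CPM in wild type, and at 7.43, 10.31 and 10.44 CPM in the knockout libraries. All 3 knockout libraries were below all wild type libraries, by as little as 10.44 against 10.58 CPM, from 12 to 30 counts each, and the fitted change was -0.32 (95% interval -0.94 to 0.31). Tapbp, the tapasin gene, lay at 49.6, 62.8 and 64.7 CPM in wild type, and 56.4, 52.6 and 56.4 CPM in the knockout libraries. The knockout values fell inside the wild type range, and the 95% interval of the log2 fold change was -0.46 to 0.25.

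Knockout libraries led for different members. KO2 was the highest of the 6 libraries for B2m, H2-K1 and H2-D1, KO3 for H2-T23, H2-M3 and Tap1, and KO1 for H2-Q4 and H2-T22. On the log2 scale relative to the wild type mean, B2m stood at 0.48, 0.90 and 0.69 in KO1 to KO3, H2-T23 at 0.49, 0.44 and 0.97, and Tap1 at 0.39, 0.38 and 1.29. The 5 genes outside the list whose profile over the 6 libraries was most like the median profile of the tested members, among 5513 with a mean of at least 20 CPM, were Ccdc117, Syf2, Eif4g1, Gatad1 and Anks4b. Their mean absolute difference from it was 0.045 to 0.058 on the log2 scale, and none of the 5 was called.

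Levels were compared between genes per kilobase of the longest coding transcript in GENCODE M21. B2m was highest in wild type at 1570 ± 121 CPM per kb, followed by H2-K1 at 374 ± 62, H2-D1 at 45.7 ± 12.3 and H2-T23 at 44.3 ± 4.9 CPM per kb (SD, n = 3). H2-D1 and H2-T23 overlapped in range. Tapbp at 20.4 ± 2.8 and H2-Q4 at 19.2 ± 4.7 CPM per kb followed, with overlapping ranges. Tap1 and Tap2 were at 3.53 ± 1.13 and 3.46 ± 0.39 CPM per kb and were not separated by their spread, and neither were H2-T22 at 1.115 ± 0.663 and H2-M3 at 0.777 ± 0.590 CPM per kb. In the knockout Tap1 stood at 5.94 ± 2.31 and Tap2 at 2.73 ± 0.49 CPM per kb, and Tap1 was above Tap2 in each of the 3 libraries. The order of near neighbours depended on the length. Per kb of merged exons, a length chosen after the data were seen, Tap1 at 1.90 ± 0.61 was below Tap2 at 3.15 ± 0.36 CPM per kb in all wild type libraries, and in KO2 the values were 2.48 and 2.73 CPM per kb. H2-D1 at 37.3 ± 10.05 was then above H2-T23 at 22.6 ± 2.5 CPM per kb in wild type without overlap, and H2-T22 at 0.575 ± 0.342 was below H2-M3 on average. H2-K1 made up 71.0% to 79.0% of the CPM of the 6 heavy chain members in wild type and 70.7% to 71.6% in knockout.

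**Figure D3:**
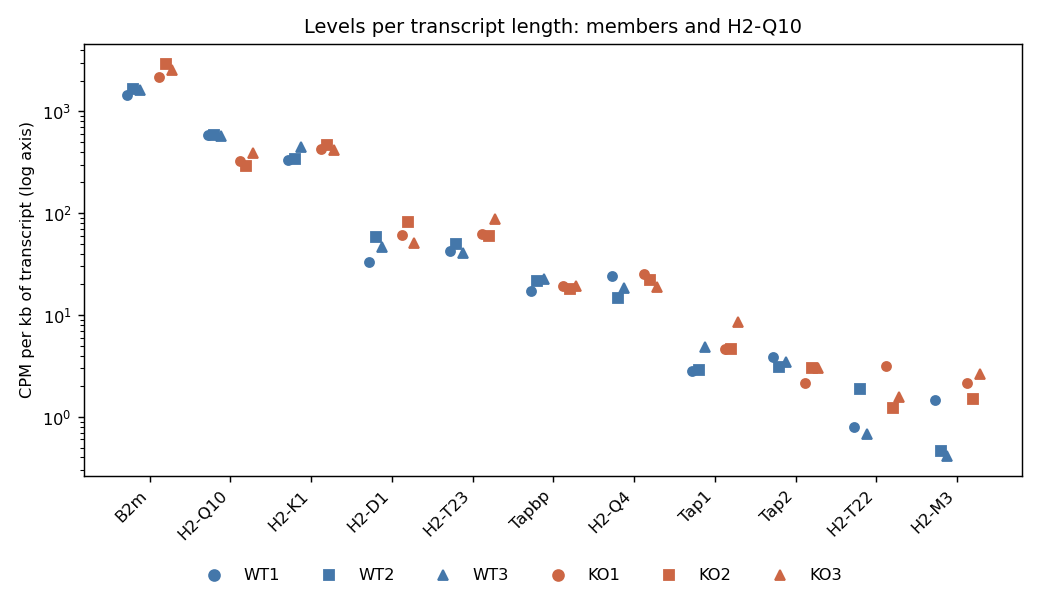
CPM per kb of the longest coding transcript (log axis) for the members and for H2-Q10, ordered by the wild type mean, 1 symbol per library. B2m is highest in every library, and H2-Q10 lies above H2-K1 in wild type and below it in knockout.

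Reads of near-identical heavy chain genes can be shared or dropped in counting, so the share of 50-base stretches that each member's GENCODE transcripts have in common with another gene was computed. It was 0% for B2m, 0.576% for H2-M3, 9.63% for H2-K1, 12.8% for H2-D1 and 14.5% for H2-T23. For Tap1, Tap2 and Tapbp it was 3.33%, 11.6% and 23.2%. For H2-Q4 it was 36.4% and for H2-T22 53.5%, most of the latter with H2-T10 (31.2%). Exons of Tap1 and Psmb9 overlap on opposite strands, as do those of H2-T22 and A930015D03Rik, and the counting is not stated to use strand. Exons of Tapbp overlap those of Zbtb22 on the same strand. How these overlaps bear on the values of the members was not tested.

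H2-Q10, a secreted class I heavy chain made by hepatocytes, fell in the knockout. Of 27 other heavy chain genes in the files, 13 had no read and 3 passed the filter. H2-Q10 was the 1 that was called, lower, against 2.65% called lower over all tested genes. It stood at 1173.5, 1169.9 and 1129 CPM in wild type, and 650, 577 and 775 CPM in the knockout libraries. All knockout libraries were far below the narrow wild type range. The log2 fold change was -0.79 (edgeR adjusted p = 0.0092), and it was called lower in 15 of 15 alternatives. The 8 hepatocyte markers summed to 102615 to 118300 CPM in wild type, against 68111 to 98199 CPM in knockout, also without overlap. Alb alone gave 88939 of the 118300 CPM in WT1, and its own groups overlapped. None of the 8 had a positive fitted change, and the median was -0.36. edgeR called 1 of the 8 lower, DESeq2 2 and limma-voom 1, and 5 were lower at an unadjusted p under 0.05. The part of these markers in the value of H2-Q10 was not tested. Among its 50-base stretches, 19.1% occur in another gene, 14% in H2-Q7, which had no read in any library, and 3.97% in H2-K1.

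The balance between heavy chains also differed between the genotypes within each library, independent of scaling. The count ratio of H2-K1 to H2-Q10 was 0.462, 0.471 and 0.639 in WT1 to WT3 and 1.07, 1.32 and 0.861 in KO1 to KO3. The groups did not overlap. Per kilobase of transcript, H2-K1 was at 0.568 to 0.786 of H2-Q10 in wild type and at 1.06 to 1.62 times H2-Q10 in knockout, so the order of these genes differed between all wild type and all knockout libraries, also with merged exons as the length (0.684 to 0.946 and 1.27 to 1.95). The summed CPM of the 6 heavy chain members was 804 ± 99 in wild type and 992 ± 63 in knockout, and that of all listed heavy chain genes, H2-Q10 included, 1997 ± 72 and 1699 ± 52. The count ratio of B2m to H2-K1 was 2.28, 2.60 and 1.92 in wild type and 2.72, 3.32 and 3.26 in knockout, again without overlap. These ratios were chosen after the values were seen and are given without a test. With 3 libraries against 3, an exact permutation test cannot go below p = 0.10.

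**Figure D4:**
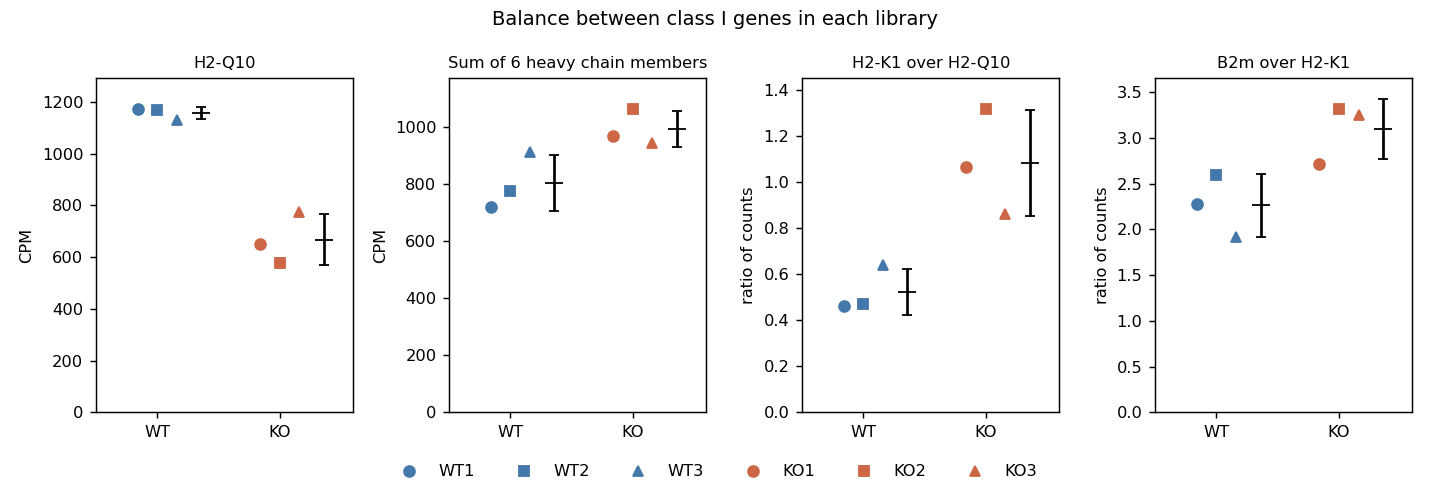
H2-Q10 and the sum of the 6 heavy chain members in CPM, and the count ratios of H2-K1 to H2-Q10 and of B2m to H2-K1, in each library, with mean and SD of 3 libraries beside the symbols. H2-Q10 is lower in all knockout libraries, and both ratios are higher in all of them (H2-K1 to H2-Q10 at least 0.861 in knockout against at most 0.639 in wild type).

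Other molecules with a class I fold were not called. Of 17 genes in this group, 4 passed the filter, and all 4 had a negative fitted change with a median of -0.37. edgeR, DESeq2 and limma-voom called 0 of the 4, and 2 were lower at an unadjusted p under 0.05. Cd1d1, which presents lipids to natural killer T cells and pairs with beta-2 microglobulin, stood at 108 ± 6 and 72.5 ± 15.2 CPM in wild type and in knockout (edgeR adjusted p = 0.061). It was called lower with no filter, without KO1 and with KO2 as the only knockout library. Azgp1, a soluble molecule with a class I fold, stood at 1228 ± 103 and 1170 ± 74 CPM.

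Partners of class I assembly in the endoplasmic reticulum were called in 1 case. Of 10 such genes, all tested, Hspa5 was called higher and none lower, against 3.08% and 2.65% of all tested genes. Their median log2 fold change was 0.04. At an unadjusted p under 0.05, Hspa5 and Calr were higher and 0 were lower. Calr had a log2 fold change of 0.41 (edgeR adjusted p = 0.22). Hspa5, the chaperone BiP, was at 1290 ± 162 CPM in wild type, against 2077 ± 228 CPM in knockout (edgeR adjusted p = 0.0217), a call that ended without WT2, WT3 or KO2 (0.0966, 0.130 and 0.0661). Of 11 genes that supply peptides in the cytosol, 10 were tested and 0 were called by edgeR, DESeq2 or limma-voom, while 2 were higher and 1 lower at an unadjusted p under 0.05. The aminopeptidase gene Lap3 stood at 245 ± 28 and 218 ± 19 CPM and the peptidase gene Tpp2 at 102 ± 4 and 107 ± 11 CPM in wild type and in knockout. The immunoproteasome gene Psmb8 was named after its values were seen because it lies between Tap1 and Tap2. Psmb8 had 16, 19 and 19 counts in wild type and 29, 24 and 70 in knockout (edgeR adjusted p = 0.19). In CPM the knockout lay above without overlap, as it did for 12.4% of all tested genes.

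Regulators of class I transcription included Irf9, which rose in every setting run. Of 16 tested, 4 rose and 1 fell, against 3.08% called higher and 2.65% lower over all tested genes. With DESeq2 or limma-voom, 2 rose and 1 fell. Irf9, the DNA-binding part of the complex that reads the interferon-stimulated response element, rose from 18.2 ± 1.4 to 44.9 ± 4.2 CPM (log2 fold change 1.31, edgeR adjusted p = 0.0018), and was called in 15 of 15 alternatives. Exons of Irf9 overlap those of Rnf31 on the same strand. Stat2 rose from 35.8 ± 4.4 to 61.2 ± 14.5 CPM, a call held in 7 of 15 alternatives and lost, among others, with DESeq2 and limma-voom and without WT1, WT2, WT3 or KO3. With KO2 as the only knockout library its log2 fold change was 0.45, against 0.79 as reported. Rfxap, a subunit of the RFX complex that binds the X box of class I and class II promoters, fell from 20.4 ± 1.1 to 7.47 ± 2.57 CPM (edgeR adjusted p = 0.0111), a call lost with KO2 as the only knockout library (0.0930).

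Nfyb, a subunit of the factor that binds the CCAAT box, also rose, from 32.0 ± 2.9 to 51.4 ± 7.3 CPM, and held in 5 of 15 alternatives. It was named after its values were seen. The call ended with any library but KO1 left out, and with DESeq2 and limma-voom. Nlrc5, named after its values were seen as the class I transactivator, had 8, 15 and 15 counts in wild type and 22, 38 and 47 in knockout. Its log2 fold change was 1.04 with an edgeR adjusted p of 0.064, and it was called in 3 of 15 alternatives.

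**Figure D5:**
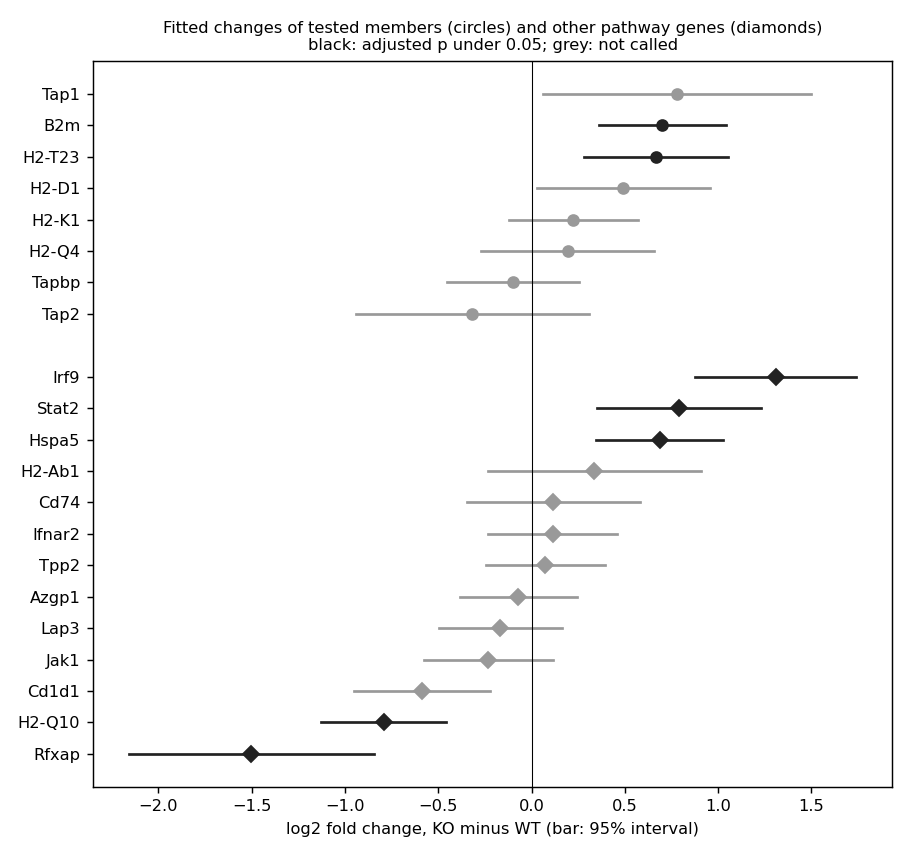
Fitted log2 fold changes (knockout minus wild type, x axis) with 95% intervals. Circles are the 8 tested members, and diamonds are genes of the other lists picked by the naming rule given below. Symbols are black where the adjusted p was under 0.05. Calr, Psmb8, Nlrc5 and the called gene Nfyb, described outside that rule, are not drawn. B2m and H2-T23 are the black circles, and H2-Q10 (-0.79) and Rfxap (-1.501) are the black diamonds on the negative side.

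Interferon receptors and their kinases, and class II genes, were not called. None of the 7 tested receptor and kinase genes passed with edgeR, DESeq2 or limma-voom, and 0 had an unadjusted p under 0.05. Ifnar2 stood at 63.1 ± 8.0 and 68.1 ± 5.4 CPM and Jak1 at 150 ± 23 and 127 ± 12 CPM in wild type and in knockout. Of 11 class II genes, 4 passed the filter, and 0 were called by any of the 3 tools or at an unadjusted p under 0.05. Cd74, the invariant chain, stood at 46.1 ± 10.96 and 50.8 ± 10.21 CPM and H2-Ab1, a class II beta chain, at 35.8 ± 17.2 and 45.8 ± 2.8 CPM.

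Markers of other liver cells differed in part between the genotypes. The 16 Kupffer cell and macrophage markers summed to 266, 496 and 384 CPM in WT1 to WT3 and 431, 790 and 777 CPM in KO1 to KO3, and 3 of 14 tested were called higher. At an unadjusted p under 0.05, 10 were higher, DESeq2 called 6 and limma-voom 3, and 13 were positive with a median log2 fold change of 0.80. KO1 lay below WT2 for the sum. The knockout libraries stood in the order KO2, KO3, KO1 for the sum and for B2m, and KO3, KO1, KO2 for H2-T23. KO2 and KO3 were close for the sum, at 790 and 777 CPM. An order of 3 libraries shows little, and no association was tested. The 16 lymphocyte markers summed to 5.59 to 10.09 CPM in wild type and 8.14 to 14.9 CPM in knockout, and none passed the filter. Cd3d, Cd3e and Cd3g, which define T cells, had no read in wild type and at most 2 counts in a knockout library. Of 7 dendritic cell markers, 2 were tested and none was called, and the sums were 33.5 to 41.0 and 31.5 to 38.4 CPM. The 12 endothelial markers, all tested, summed to 596 to 642 CPM in wild type, against 462 to 606 CPM in knockout. Of these, 1 was called higher and 2 lower. The 9 stellate cell markers summed to 480 to 523 and 642 to 745 CPM, with 2 of 7 tested called higher. The 6 neutrophil markers in the files summed to 4.16 to 5.95 and 13.0 to 24.4 CPM, and the 1 tested was called higher. The 7 cholangiocyte markers summed to 35.6 to 50.3 and 45.8 to 71.6 CPM, with none of 3 tested called. Over all tested genes, edgeR called 3.08% higher and 2.65% lower. DESeq2 called 260 of 9180 higher and limma-voom 234, and no share was computed for the unadjusted p. The part of the marked cell types in the changes of B2m, H2-T23 and H2-Q10 was not tested.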

How the data were processed

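Per the labels' protocols, RNA was extracted from homogenised liver with TRIzol and copied with SuperScript, and libraries followed Illumina protocols. The deposited files give raw read counts per gene symbol for each of 6 libraries, with no normalization. TopHat 1.4.1, HTSeq, edgeR and the build mm9 appear in the submitters' processing notes with no roles, and whether counting used strand is not stated there. Each file also held 5 totals of the counter, left out of library sizes and tests, of which reads in no gene were 93.3% to 95.8% of counted reads. Samples were grouped by genotype.

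All genes were fitted with edgeR 4.0.16 in R 4.3.3 (quasi-likelihood F test, TMM factors, genotype as the only term, filterByExpr with a minimum count of 10). Benjamini-Hochberg adjustment covered all 9180 tested genes, and a gene was called at an adjusted p under 0.05. SE is the log2 change over the square root of F, and intervals are at 95%. Alternatives used other scaling, DESeq2 1.42.0, limma 3.58.1 voom, other filters, the replicate number as a block, and libraries left out. The fit was tested on simulated counts. Named genes were the members, Trim24, up to 4 called genes of each pathway list by adjusted p (or the 2 of highest mean CPM where none was called) and the 5 of most similar profile, the last on log2(CPM + 1). Members and lists were chosen with earlier results of these data known. The values of 1 gene that the rule names are not reported here. Promoters came from RefSeq (GRCm38.p6) and transcript lengths from GENCODE M21, a build other than mm9. Python 3.11.15 with pandas 2.3.3 and matplotlib 3.10.9 prepared tables and figures.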

Additional observations from a re-analysis of the deposited data

How the results depend on the processing

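The low share of reads in genes limits the depth behind the members, most of all for H2-T22, H2-M3, Tap1 and Tap2, and 3 libraries per genotype limit every call. No tested member changed sign under any of the 15 alternatives. The number of members called higher was 2 as reported and 1 with DESeq2, with limma-voom, with at least 1 CPM in 3 libraries, and with KO2 as the only knockout library, and 0 to 2 with a library left out (0 without WT1, WT2 or WT3, 1 without KO2 or KO3). Over all genes, 576 were higher and 509 lower with no filter, and 127 to 409 were higher and 95 to 363 lower with a library left out. The cause was not tested. Replicate numbers did not pair the libraries: deviations of same-numbered libraries correlated at -0.07, 0.08 and 0.03 for the pairs numbered 1 to 3, and not every library correlated best with its own number. With the replicate block, 1 member was called higher, with H2-T23, Stat2 and Nfyb no longer called (adjusted p of 0.0597, 0.0534 and 0.0523), and over all genes 295 were higher and 250 lower. Without being called anywhere, Azgp1 changed sign with library size alone (0.0250) and with KO2 as the only knockout library (0.0280), Ifnar2 with KO2 as the only knockout library (-0.0296), Tpp2 without KO2 and Cd74 without WT1 or KO1, on the log2 scale. With a library left out, Tpp2 ranged from -0.0088 to 0.115 and Cd74 from -0.0556 to 0.284.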

Other observations

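Among heavy chain genes with few reads, 4 had reads in 1 genotype only and more than 3 counts there. They were singled out after their values were seen, and none passed the filter. H2-M2 had 0 counts in every wild type library and 4, 2 and 3 counts in KO1 to KO3. With a floor of 3 counts in all wild type libraries together, it was 2.19-fold higher in knockout. H2-Q6 had 0 counts in wild type and 1, 5 and 2 in knockout, 1.95-fold higher against the same floor. H2-Bl had 3, 3 and 1 counts in wild type and 0 in knockout. It was 3.19-fold lower in knockout against a floor of 3 counts in all knockout libraries together. Gm8909 had 1, 2 and 2 counts in wild type and 0 in knockout, 2.28-fold lower against that floor. The floor allows for counting error only in the genotype without reads. Counts of the other genotype were taken as exact, so these folds are not lower limits. Spread between libraries was not covered.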
